A study of Mus musculus with 15 samples.

Results

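Glycerol kinase (Gk) and the enzyme genes G6pd2 and Ldhal6b were followed in mouse liver after ischaemia and reperfusion, with and without ischaemic preconditioning. They are 3 of the 60915 probes kept from the array. They were chosen by their RefSeq mRNA identifiers, NM_008194.3 for Gk, NM_019468.2 for G6pd2 and NM_175349.2 for Ldhal6b, each of which stands on 1 custom probe printed as 20 spots on every array. The probes of 12 other genes carry a RefSeq identifier and 20 spots in the same way.

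Total RNA of C57BL/6 liver was measured on 15 one-colour arrays, 5 for each group. Mice of the sham group had a laparotomy and handling of the liver hilum with no vessel clamped. In the ischaemia-reperfusion (I/R) group the left lateral and median lobes, 70% of the liver, were clamped for 75 min, and 2 h of reperfusion followed. Preconditioned (IPC) mice had this clamping and reperfusion after a short cycle, with the vessels closed for 10 min and open for 10 min. All mice had pentobarbital anaesthesia, and no age, sex or genotype beyond the strain was used here. The design names 18 mice (6 in each group), but no label says which mouse gave which array. In bulk tissue, fewer cells of a type and less RNA per cell cannot be told apart. The p-values therefore measure only how these arrays vary, part of which may be technical.

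Glycerol kinase phosphorylates glycerol to glycerol 3-phosphate, which in liver feeds triglyceride synthesis and gluconeogenesis. The Gk gene is X-linked and widely expressed. G6pd2 is an intronless autosomal copy of the X-linked gene G6pdx, whose product, glucose-6-phosphate dehydrogenase, opens the pentose phosphate pathway and makes NADPH. Ldhal6b encodes a lactate dehydrogenase-like protein and is an intronless relative of the lactate dehydrogenase genes, which interconvert pyruvate and lactate. Both retrogenes are known chiefly from testis. In liver, where transcripts of the parent gene are present, signal at a probe for a near-identical copy can come from either transcript. The probe sequences were not used here, so G6pd2 and G6pdx transcripts cannot be told apart at this probe.

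The bases just before the annotated starts are shown because they separate Gk from the retrogenes by sequence. Each is the 250 bases upstream of the start, 5′ to 3′ on the gene's strand, from RefSeq on build GRCm38.p6, with CG dinucleotides in capitals. All 3 genes matched the promoter table by symbol. The Gk window lies at chrX:85776820-85777069 on the minus strand, that of G6pd2 at chr5:61808593-61808842 on the plus strand and that of Ldhal6b at chr17:5418768-5419017 on the minus strand.
Gk: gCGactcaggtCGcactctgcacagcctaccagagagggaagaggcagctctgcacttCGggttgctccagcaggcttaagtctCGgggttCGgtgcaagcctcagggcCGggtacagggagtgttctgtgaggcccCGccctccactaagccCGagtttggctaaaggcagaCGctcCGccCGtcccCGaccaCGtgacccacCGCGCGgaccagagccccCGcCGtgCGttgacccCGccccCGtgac
G6pd2: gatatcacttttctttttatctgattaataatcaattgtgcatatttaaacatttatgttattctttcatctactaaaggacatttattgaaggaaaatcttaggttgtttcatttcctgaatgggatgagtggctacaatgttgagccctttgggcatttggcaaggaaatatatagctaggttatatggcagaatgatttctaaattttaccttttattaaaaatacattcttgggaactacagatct
Ldhal6b: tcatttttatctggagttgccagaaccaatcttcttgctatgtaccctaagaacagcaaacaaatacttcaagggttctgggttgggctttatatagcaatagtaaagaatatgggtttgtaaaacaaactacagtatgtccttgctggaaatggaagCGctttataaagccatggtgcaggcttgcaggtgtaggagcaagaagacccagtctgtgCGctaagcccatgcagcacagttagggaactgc

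The Gk window held 21 CG dinucleotides, that of Ldhal6b 2 and that of G6pd2 0, against a median of 6 over the 32851 promoters of the table. As many as 21 stood in 16.3% of those promoters, and 0 in 7.87%. The G+C content was 67.2% for Gk, 43.6% for Ldhal6b and 30% for G6pd2. The letters ACGTG, the core of the hypoxia response element, were searched on both strands (CACGT on the other). They were found in the Gk window and in 16.6% of all promoters, and not in the windows of the retrogenes. With the 50 bases after the start included, the longest run shared by G6pd2 and G6pdx was 27 bases, beginning 10 bases before the annotated start of G6pd2. No promoter other than that of G6pd2 shared a run of this length with G6pdx.

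The level of a gene on an array is given as log2 of the processed signal, less the 75th percentile of all non-control spots of that array. It is averaged over the spots that the scanner software did not mark as outliers. A positive level is above that percentile. The percentile itself lay between 8.08 and 8.78, and the share of probes well above background ran from 49.97% to 59.6% over the arrays. The arrays came from 2 slides told apart by scan time. Slide 2 carried all sham arrays together with I/R arrays 1, 2 and 3. Slide 1 carried the rest, I/R arrays 4 and 5 and all IPC arrays, so that sham and IPC shared no slide. The comparisons of I/R and of IPC with sham share the sham arrays. Of the arrays' control spots for Gapdh, those for the 3′ end exceeded those for the 5′ end by 0.80 to 0.97 in sham, by 0.43 to 0.70 in I/R and by 0.51 to 0.65 in IPC. This gap, a sign of RNA quality, was thus larger on every sham array than on any other, and the part of it in the results was not tested. For the control spots of Pgk1 it was 7.51 to 7.65 in sham, 7.51 to 7.92 in I/R and 7.77 to 7.94 in IPC. By slide the Pgk1 gap was 7.51 to 7.70 on slide 2 and 7.77 to 7.94 on slide 1.

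All 3 probes gave signal in liver. For Gk, 300 of 300 spots over the 15 arrays were well above background, with mean signals from 294 to 507 on the linear scale. For G6pd2, too, 300 of 300 spots were, with mean signals from 134 to 212. For Ldhal6b, 271 of 300 spots were well above background, and its mean signals ran from 157 to 343. The negative-control spots had median signals of 7.15 to 8.92 on the same arrays, and on no array did 1 of the 300 negative-control spots reach the median spot of a member. No spot of the 3 probes was saturated. Levels of different probes are not set against each other, because probes differ in how they bind.

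On the mean over unmarked spots, G6pd2 was the 1 gene of the 3 with a difference that passed, that between IPC and sham. Its 5 sham arrays read -0.90, -0.86, -0.95, -0.92 and -0.89. The 5 I/R arrays read -0.96, -1.05, -1.02, -0.98 and -0.99. The 5 IPC arrays read -1.09, -1.15, -1.09, -1.04 and -1.11. Every I/R array and every IPC array was below every sham array. The IPC arrays lay below the I/R arrays except that IPC array 4 stood above I/R array 2. In the plot of levels by array G6pd2 descends from sham to I/R to IPC, while the groups of the other genes overlap.

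**Figure D1:**
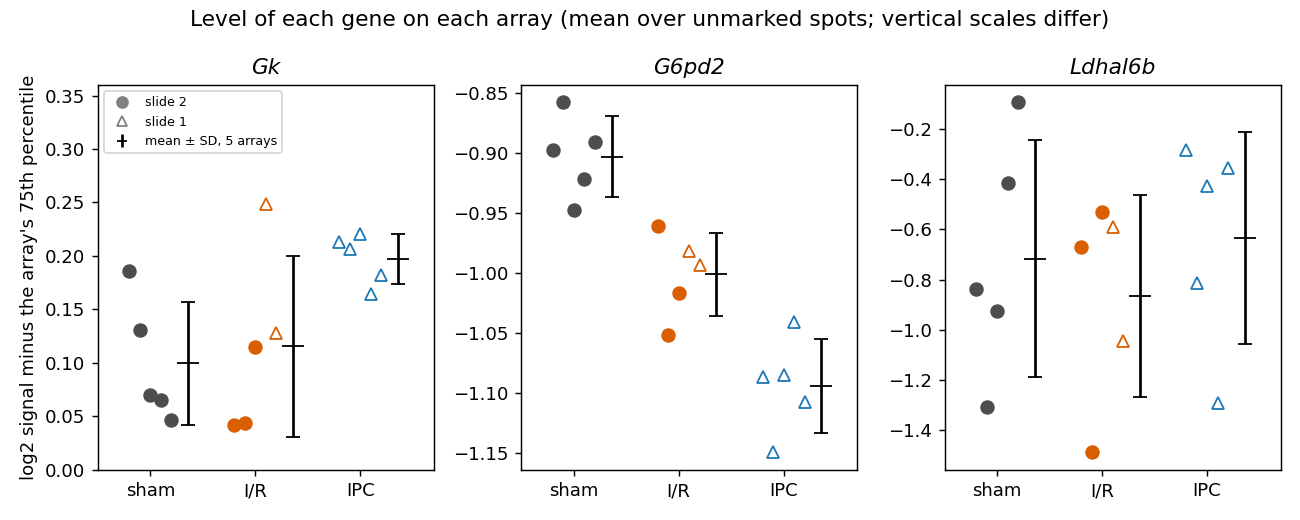
Level of Gk, G6pd2 and Ldhal6b (log2 signal minus the array's 75th percentile) on each of the 15 arrays, by group; filled circles are arrays of slide 2, open triangles arrays of slide 1, and the bars are the mean ± SD of 5 arrays. The G6pd2 means fall from -0.90 in sham to -1.0 in I/R and -1.09 in IPC, and the vertical scale of Ldhal6b is far wider than those of the others.

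The IPC arrays were 1.14-fold lower in G6pd2 than the sham arrays, at -1.09 ± 0.0392 against -0.90 ± 0.0337 (SD, n = 5 arrays per group). The difference of -0.19 ± 0.0383 (SE) had a limma adjusted p of 0.0018, taken over all 34985 probes tested, and an exact two-sided permutation p of 0.00794, the smallest that 5 arrays against 5 can give. In this comparison 30.1% of all tested probes were called at an adjusted p of 0.05 (13.6% higher and 16.6% lower in IPC), and 27.4% had groups that did not overlap. A call of this kind was therefore common on these arrays. In absolute size the fall was at or above that of 49.5% of the tested probes. The fall passed under all 34 alternatives, 19 other settings and 15 fits with 1 array left out, with adjusted p from 0.000441 to 0.034. With slide as a block it was -0.21 (adjusted p = 0.0307), and no slide held both groups. It was smallest, -0.12, where the 75th percentile was taken over probes detected on all arrays.

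I/R alone put G6pd2 at -1.0 ± 0.0345 (SD, n = 5), 1.07-fold below sham. That difference, -0.10 ± 0.0383 (SE), did not pass over all probes (limma adjusted p = 0.0678; exact permutation p = 0.00794). Here 31.0% of probes were called (14.6% higher and 16.4% lower in I/R) and 23.2% had groups that did not overlap. The call was made in 5 of 36 alternatives: under quantile normalization (-0.12, adjusted p = 0.0302), with array weights (-0.10, 0.0313), with outlier spots kept (-0.11, 0.0374), on the upper quartile of the spots (-0.11, 0.0431), and on the median spot with slide as a block (-0.13, 0.0193). With the percentile over probes detected on all arrays it was -0.033 (0.573). Within slide 2 alone, which has 3 I/R arrays, the difference was -0.11 (adjusted p = 0.126).

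Between IPC and I/R, G6pd2 differed by -0.093 ± 0.0383 (SE), with a limma adjusted p of 0.185 and an exact permutation p of 0.0159. Of all probes 7.86% were called in this comparison (3.48% higher and 4.38% lower in IPC), and 8.37% had groups that did not overlap. The difference was -0.11 both with slide as a block (adjusted p = 0.222) and within slide 1 alone (0.355). It passed in 0 of 36 alternatives and was below 0 in all of them, from -0.15 to -0.077. The steps between I/R and its neighbours thus did not pass, and only the step from sham to IPC did.

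On an array the unmarked spots of G6pd2 had an SD between 0.0593 and 0.176. The median spot showed the same order, with groups at -0.88, -0.98 and -1.09 in sham, I/R and IPC.

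No difference of Gk, the kinase, passed on the mean over its spots. Its sham arrays read 0.19, 0.13, 0.070, 0.065 and 0.047. The I/R arrays read 0.041, 0.044, 0.12, 0.25 and 0.13. The IPC arrays read 0.21, 0.21, 0.22, 0.16 and 0.18. The 5 IPC arrays were close together and high, within the range of the I/R arrays, while sham array 1 reached into the IPC range.

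The difference of Gk between I/R and sham was 0.016 ± 0.0478 (SE; limma adjusted p = 0.84), with a 95% confidence interval from -0.087 to 0.12. The I/R arrays averaged 0.12 ± 0.0844 and the IPC arrays 0.20 ± 0.0233 (SD, n = 5). These means lay 0.082 ± 0.0478 apart (SE; limma adjusted p = 0.38; interval -0.021 to 0.18), or 0.13 with array weights (0.0266). Against sham, at 0.10 ± 0.0575, they differed by 0.098 ± 0.0478 (SE; adjusted p = 0.146; exact permutation p = 0.0238; interval -0.0051 to 0.20). None of the 3 passed on the mean over spots, and their intervals reach as far as 0.20. On the median spot the IPC arrays, from 0.17 to 0.24, all lay above the sham arrays, from 0.066 to 0.16. Separation of this kind was common: on the mean over spots 27.4% of all tested probes had IPC and sham groups that did not overlap. The median-spot difference of Gk was 0.10 (exact permutation p = 0.00794, the smallest possible) and did not pass over all probes (limma adjusted p = 0.112). With slide as a block it was -0.041 (adjusted p = 0.676).

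Among the I/R arrays, the only group on both slides, Gk was higher on slide 1 than on slide 2, and an effect of slide was not tested. Sham array 1 of slide 2, at 0.19, stood above IPC arrays 4 and 5 of slide 1, at 0.16 and 0.18. The 3 I/R arrays of slide 2 averaged 0.067, below the 5 sham arrays of that slide at 0.10. The 2 I/R arrays of slide 1 averaged 0.19, next to the 5 IPC arrays of that slide at 0.20. Within slide 2 the I/R minus sham difference of Gk was -0.033 (limma adjusted p = 0.672). Within slide 1 the IPC minus I/R difference was 0.0091 (adjusted p = 0.948). With slide as a block the IPC minus sham difference turned to -0.024 (adjusted p = 0.842). The scaling mattered as well: with the percentile over probes detected on all arrays that difference was 0.17 and passed (0.0307), as it did with outlier spots kept (0.12, 0.0335).

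The difference between Gk and G6pd2 within an array was compared between groups, which asks whether both genes shifted alike. The shift of Gk minus G6pd2 was 0.29 between IPC and sham (exact permutation p = 0.00794), 0.17 between IPC and I/R (exact p = 0.0159) and 0.11 between I/R and sham (exact p = 0.0317). After adjustment over the 9 such tests of the 3 pairs these p-values were 0.0714, 0.0714 and 0.0952, so none passed. On the median spot the adjusted exact p-values were 0.0357, 0.0357 and 0.0429, with shifts of 0.31, 0.19 and 0.12. These tests leave out slide, and sham and IPC shared none. With slide as a block the shifts on the mean over spots were 0.19 between IPC and sham, 0.12 between IPC and I/R and 0.074 between I/R and sham. Within slide 1 the IPC minus I/R shift had an exact permutation p of 0.0952, and within slide 2 the I/R minus sham shift one of 0.161. Both adjusted to 0.482 over the 6 such tests of the 3 pairs, which were added once the values were known. Without I/R array 4 and with no block, the IPC minus I/R shift was 0.20 (adjusted exact p = 0.0357).

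Ldhal6b, the lactate dehydrogenase-like gene, scattered widely. Its sham arrays read -0.84, -1.31, -0.93, -0.41 and -0.094. The I/R arrays read -0.67, -1.49, -0.53, -0.59 and -1.05. The IPC arrays read -0.28, -0.81, -0.43, -1.29 and -0.35. The arrays of each group lay far apart, and the groups overlapped throughout.

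The spots of Ldhal6b on 1 array also lay far apart. The SD over its unmarked spots was 0.117 to 1.88, with a median of 1.04 over the 15 arrays, against medians of 0.087 for Gk and 0.126 for G6pd2. A low spot is here one that lies more than 1 log2 unit under the upper quartile of the probe's 20 spots on that array, a limit set after the values were seen. By this limit 73 of the 300 Ldhal6b spots were low (24.3%), on 14 of the 15 arrays, and 0 of 300 were low for Gk and for G6pd2. Of the 3600 spots of the 12 other RefSeq-named probes, 1 was low. The low spots numbered 28 of 100 in sham, 25 of 100 in I/R and 20 of 100 in IPC. The plot of the 20 spots by array shows them trailing below the others.

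**Figure D2:**
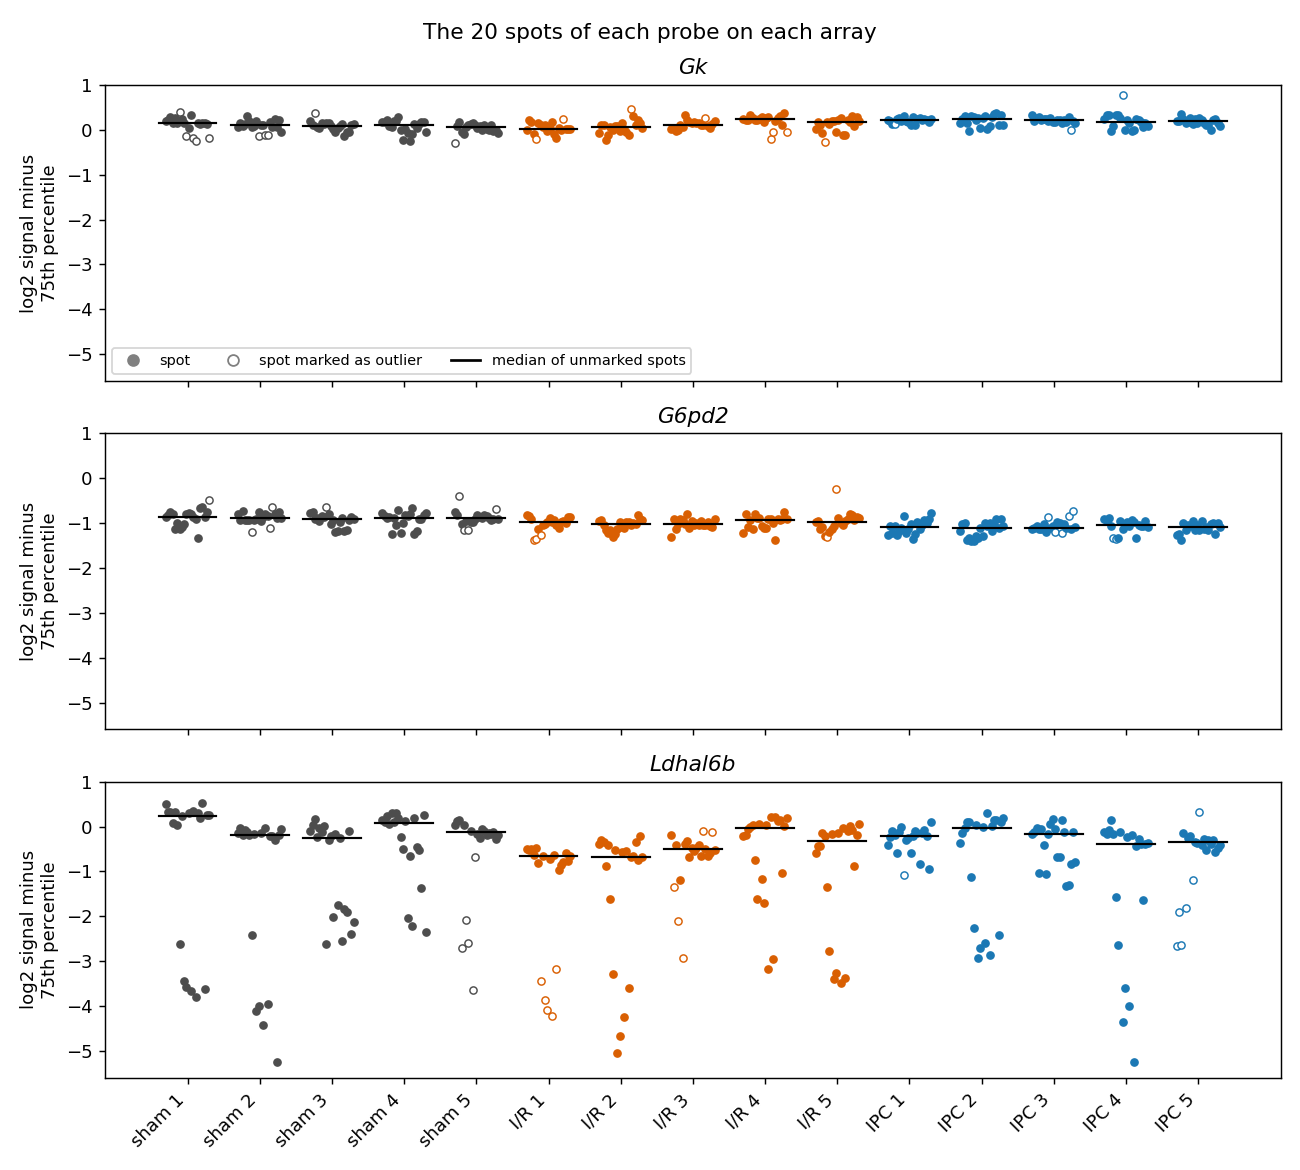
Level of each of the 20 spots of the Gk, G6pd2 and Ldhal6b probes (log2 signal minus the array's 75th percentile) on the 15 arrays; open circles are spots marked as outliers by the scanner software, and the black line is the median of the unmarked spots. Gk and G6pd2 spots form 1 band per array, whereas 73 of 300 Ldhal6b spots lie more than 1 log2 unit under the upper quartile of their array.

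The low spots were not the same on all arrays, and they lay together. A block of rows 138 to 331 and columns 4 to 64, out of 384 rows and 164 columns, was drawn around the low spots of IPC array 4. On 8 arrays, that array included by construction, all low spots stood in this block. These were sham arrays 1 and 2, I/R arrays 1, 2, 4 and 5, and IPC arrays 2 and 4, with 5 to 7 low spots each among the 7 spots that the block holds. On sham array 3 the 8 low spots lay on the other side, in rows 190 to 334 and columns 89 to 142. On IPC array 5 the 4 low spots lay at the top, in rows 2 to 119 and columns 114 to 139. Those of sham array 4 spanned rows 235 to 334 and columns 17 to 89, and those of sham array 5 rows 80 to 195 and columns 4 to 62. On I/R array 3 they lay in rows 80 to 138 of column 62, and on IPC array 3 in rows 305 to 309 and columns 104 to 106. Each of the 20 spots was low on at least 1 array, 7 of them on 5 or more, and none on more than 9. Of the 73 low spots, 56 lay in the block drawn. The map of spots by place shows this block low on 8 arrays, and low spots wholly or partly outside it on 6 others.

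**Figure D3:**
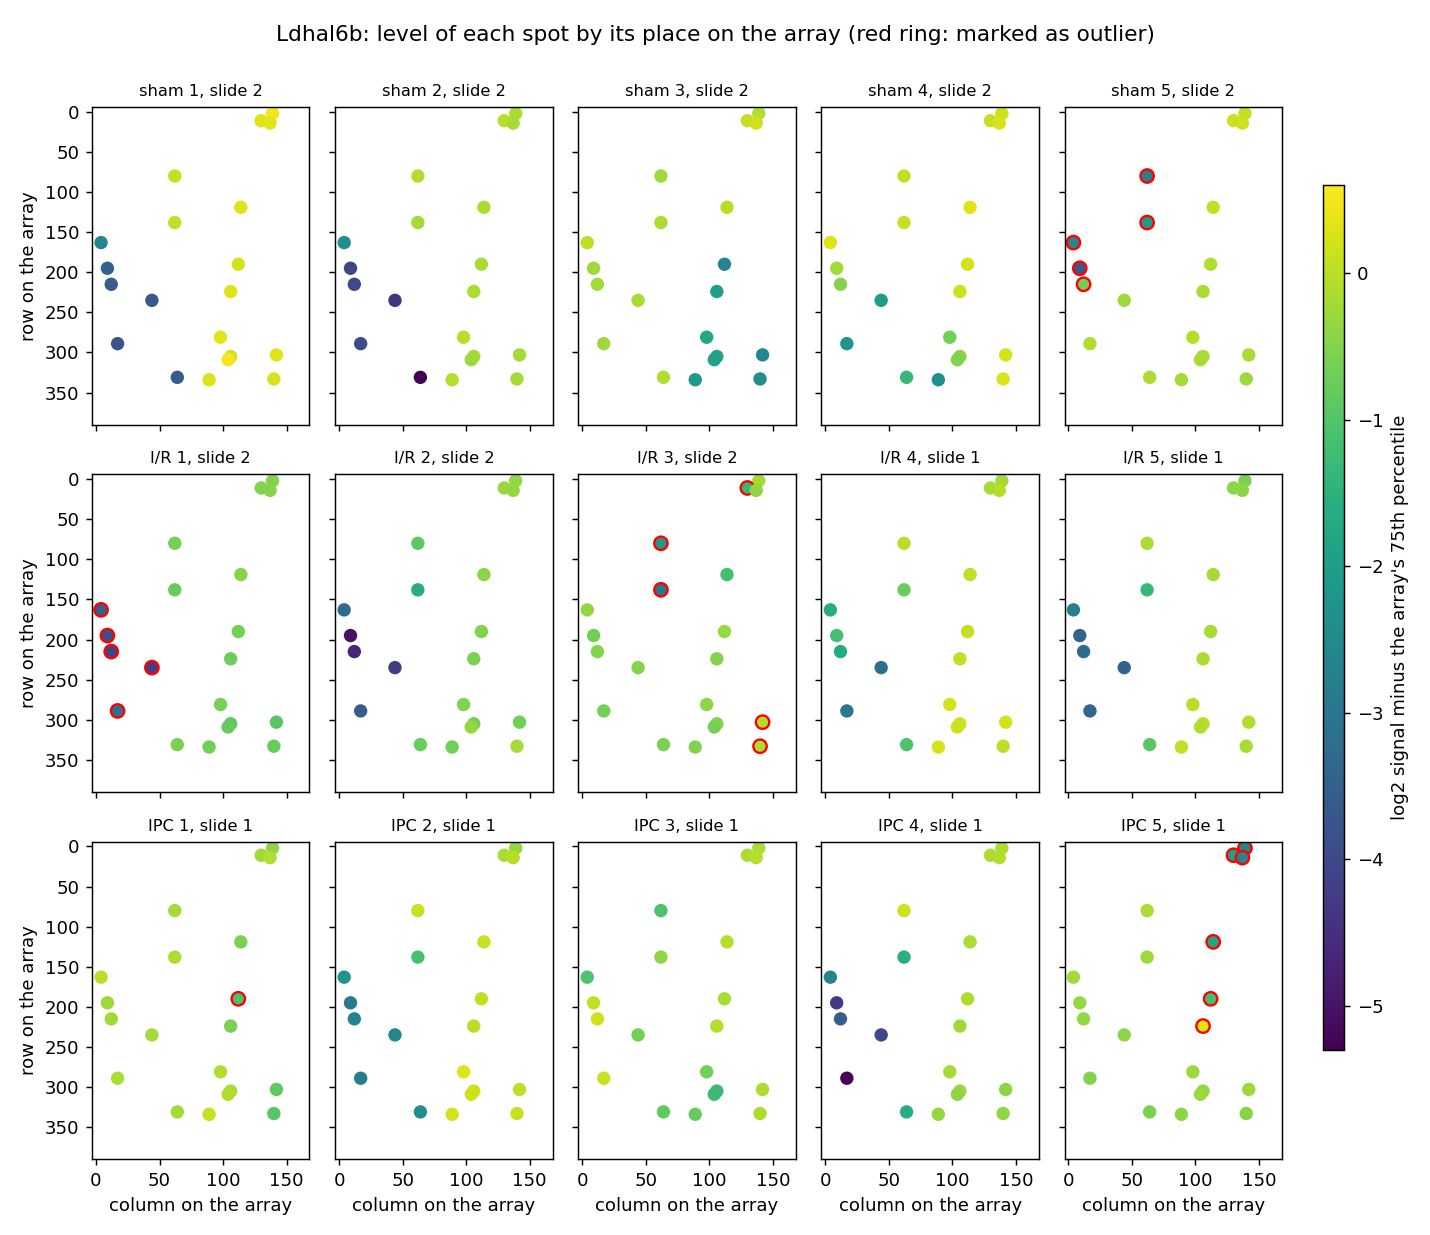
Each panel is 1 array and each point 1 of the 20 Ldhal6b spots at its column and row, coloured by level (log2 signal minus the array's 75th percentile); red rings are spots marked as outliers. Dark, low spots cluster on the left on 8 arrays, on the lower right on sham array 3 and at the upper right on IPC array 5, and IPC array 1 has 0 low spots.

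Other probes at the same places were lower too, each taken against its own median over the 15 arrays. Within 15 rows and 10 columns of a Ldhal6b spot lay 62 to 130 single-spot probes of similar brightness, with a median level between -1.5 and 0.75. Around the 73 low spots the median deviation of these neighbours from their own 15-array median was centred on -0.063, and around the other 227 on 0.013. The low spots themselves stood at a median level of -2.71 against -0.18, which are levels and not deviations. Some places were low for Ldhal6b on 8 or 9 of the 15 arrays. A dip that recurs at a place is taken up in the neighbours' own medians, so its size cannot be set against that of the Ldhal6b spots. Of the neighbours' values around low spots, 247 of 7570 (3.26%) were more than 1 log2 unit below their own median, against 136 of 25025 (0.543%) around the others. A probe can be counted near more than 1 spot. Across the 300 spots of each probe, the deviation of a spot from its array's mean and that of its neighbours had a Pearson r of 0.56 for Ldhal6b, 0.57 for G6pd2 and 0.48 for Gk. These spots share arrays and places, so the values of r are descriptions.

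The scanner software marked the low Ldhal6b spots unevenly, and the level of the arrays with marked low spots moved with it. On 4 arrays it marked all of them as outliers (I/R arrays 1 and 3, sham array 5 and IPC array 5), and on the other 10 arrays with low spots it marked none. With the marked spots left out sham array 5 read -0.094, the highest of its group, and with them kept it read -0.66. For I/R array 1 these readings were -0.67 and -1.44, for I/R array 3 -0.53 and -0.73, and for IPC array 5 -0.35 and -0.74. The readings of these 4 arrays thus moved with the marking.

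On those means Ldhal6b did not differ between the groups, and the intervals are wide. It stood at -0.72 ± 0.471 in sham, -0.87 ± 0.401 in I/R and -0.63 ± 0.421 in IPC (SD, n = 5). I/R differed from sham by -0.15 ± 0.256 (SE; limma adjusted p = 0.706), with a 95% interval from -0.70 to 0.40. IPC differed from I/R by 0.23 (adjusted p = 0.674; interval -0.32 to 0.78). IPC differed from sham by 0.082 (adjusted p = 0.852; interval -0.47 to 0.63).

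The median over the spots, less moved by the low ones, gave narrower values. Sham arrays then read 0.24, -0.19, -0.25, 0.072 and -0.12. The I/R arrays read -0.65, -0.67, -0.49, -0.029 and -0.31, and the IPC arrays -0.22, -0.022, -0.16, -0.38 and -0.35. I/R arrays 1, 2 and 3 were below all others of the 15, while I/R arrays 4 and 5 lay among the other groups.

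By the median spot Ldhal6b was lower in I/R than in sham, at -0.43 ± 0.267 against -0.049 ± 0.201 (SD, n = 5). The difference of -0.38 ± 0.128 (SE) passed (limma adjusted p = 0.0357; exact permutation p = 0.0476). Such a call was common: on the mean over spots 31.0% of all tested probes were called between I/R and sham, and 23.2% had groups that did not overlap. The Ldhal6b difference also passed on the spots in the upper rows of the array (-0.50, adjusted p = 0.0117). However, the upper quartile of the spots gave -0.33 (0.064) and the spots in the lower rows 0.078 (0.897). On the median spot, with 1 sham or I/R array left out, the difference passed in 5 of 10 fits, between -0.48 and -0.31 (adjusted p from 0.00565 to 0.0905). It lost the call without I/R array 1 (-0.33, adjusted p = 0.087), I/R array 2 (-0.32, 0.0884), I/R array 3 (-0.37, 0.0639), sham array 1 (-0.31, 0.0905) or sham array 4 (-0.35, 0.0784). The difference was larger on slide 2, where the 3 I/R arrays averaged -0.60 against -0.049 in the 5 sham arrays, a difference of -0.56 (adjusted p = 0.0129; exact permutation p = 0.0179, the smallest possible for 3 against 5). The 2 I/R arrays of slide 1 averaged -0.17 and the 5 IPC arrays of that slide -0.23, a difference of -0.055 in the opposite direction to that over both slides (adjusted p = 0.832). IPC minus I/R over both slides was 0.21 on the median spot (adjusted p = 0.417), and IPC minus sham was -0.18 (0.337). With slide as a block the latter became -0.61 (adjusted p = 0.0295), a value that rests on the I/R arrays as the only link between the slides. The slide analyses and the fits with 1 array left out on the median spot were added once the values were known.

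**Figure D4:**
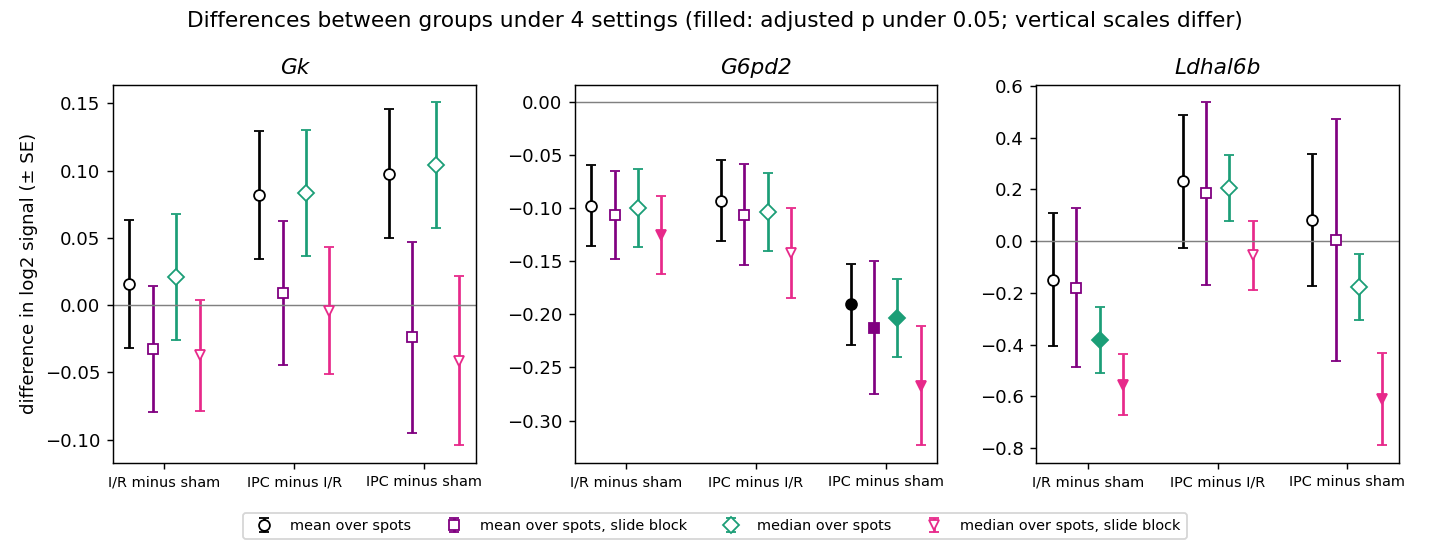
Differences between groups in log2 signal (± SE) for each gene under 4 settings: mean or median over the spots, each with and without slide as a block; filled symbols have a limma adjusted p under 0.05 over all tested probes. IPC minus sham of G6pd2 is filled in all 4, Gk in none, and I/R minus sham of Ldhal6b is filled on the median spot and open on the mean.

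Among the 12 other RefSeq-named genes, the likeness of pattern was taken as the SD, over the 15 arrays, of the difference between both log2 values, smaller being more alike. G6pd2 was most like Gapdh (0.0933), Nono (0.0952) and Rpl13a (0.106) and least like Tfrc (0.364). Between IPC and sham, Gapdh differed by -0.20 (limma adjusted p = 0.00599), Nono by -0.21 (0.0074) and Rpl13a by -0.16 (0.0428). Tfrc differed by 0.65 (5.33e-07). A fall from sham to IPC was thus not particular to G6pd2. Between I/R and sham, Gapdh differed by -0.24, Nono by -0.22 and Rpl13a by -0.22, and all passed. G6pd2 differed by -0.098 there and did not pass. Between IPC and I/R, Gapdh differed by 0.040, Nono by 0.0092 and Rpl13a by 0.063, against -0.093 for G6pd2, and none passed. Gk was most like B2m (0.106), Hprt (0.121) and Tbp (0.147) and least like Actb (0.274). For Ldhal6b even the nearest genes, Tbp (0.431), Hsp90ab1 (0.434) and Hprt (0.44), were farther than any gene was from Gk or G6pd2. The measure favours genes that vary little. The remaining genes of the pathways, 11 of glycerol metabolism, 8 of the pentose phosphate pathway (G6pdx among them) and 4 lactate dehydrogenases, and the 20 cell type markers could not be read, since no table used here pairs a probe with any of them. The liver label could thus not be checked against marker genes.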

How the data were processed

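The data were 15 one-colour arrays of mouse liver. The deposited files hold spot intensity from the scanner software (Feature Extraction 11.0.1.1), background-corrected within the array, per the file headers. The headers name the mm9 build, and later normalization by the authors is not given in the sources used here. Marks for outlier spots and for signal well above background were also taken as deposited.

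The log2 of the processed signal, less the 75th percentile of the array, was averaged over unmarked spots of a probe. The 300 spots of 15 negative-control probes were left out. Of 60915 probes, 34985 were tested: those well above background on at least 5 arrays (for probes of 20 spots, most of the unmarked spots) with an unmarked spot on every array. Group means were fitted with limma 3.58.1 in R 4.3.3 on all 15 arrays, with eBayes and Benjamini-Hochberg adjustment over all tested probes. The fit and the permutation test were tested on simulated data. Figures used matplotlib 3.10.9. Same-numbered arrays were treated as unpaired (correlations of deviations from -0.367 to 0.512). The genes named were the 3 given, and by rule the 3 nearest and the farthest of 12 others. The members and lists were chosen with earlier results of these data known. The upper quartile of spots and, on the median spot, the slide analyses and the fits with 1 array left out were added after seeing the data, as were the slide analyses of the differences between genes. The number of arrays limits the precision.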

Additional observations from a re-analysis of the deposited data

How the results depend on the processing

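Each difference of a member was recomputed under 34 or 36 alternatives. The fall of G6pd2 between sham and IPC passed in all 34, and its other differences kept their sign in all 36. G6pd2 between I/R and sham gained a call under quantile normalization (-0.12), array weights (-0.10), outlier spots kept (-0.11), the upper quartile of spots (-0.11) and the median spot with slide block (-0.13). Gk between I/R and sham turned negative under median scaling (-0.014), array weights (-0.045), slide as a fixed (-0.033) or random block (-0.0095), within slide 2 (-0.033), the upper rows (-0.035), the median spot with slide block or within slide 2 (-0.037 in both), and ran from -0.018 to 0.037 when 1 array was left out. Gk between IPC and I/R gained a call with array weights (0.13) and turned to -0.0041 on the median spot with slide block or within slide 1. Gk between IPC and sham gained a call with the percentile over detected probes (0.17) and with outlier spots kept (0.12), and turned negative with slide block (-0.024; on the median spot -0.041).

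Ldhal6b between I/R and sham gained a call on the median spot (-0.38), the upper rows (-0.50) and the median spot with slide block or within slide 2 (-0.56 in both). It was 0.078 on the lower rows, and -0.30 to 0.0067 with 1 array left out. Between IPC and I/R it was -0.055 on the median spot with slide block or within slide 1. Between IPC and sham it turned negative under median scaling (-0.0087), normexp (-0.029), no background correction (-0.035), the median spot (-0.18), the upper rows (-0.24), the upper quartile (-0.14) and the median spot with slide block (-0.61), and ran from -0.066 to 0.25 with 1 array left out. The causes of these changes were not tested.

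On the median spot 5 of the 9 differences between members passed: Gk minus G6pd2 at 0.12 (I/R and sham), 0.19 (IPC and I/R) and 0.31 (IPC and sham), and Gk minus Ldhal6b at 0.40 (I/R and sham) and 0.28 (IPC and sham). The values that follow are on the mean over spots. With slide block, Gk minus G6pd2 fell from 0.11, 0.17 and 0.29 to 0.074, 0.12 and 0.19 in the same order. Gk minus Ldhal6b between IPC and sham turned from 0.016 to -0.029. With 1 array left out, Gk minus G6pd2 between IPC and I/R was 0.15 to 0.20, Gk minus Ldhal6b -0.0041 to 0.32 between I/R and sham and -0.15 to 0.17 between IPC and sham, and G6pd2 minus Ldhal6b between I/R and sham -0.10 to 0.21.

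Of all probes, 2750 were called between IPC and I/R, against 1397 under median scaling, 1832 with no filter, 7077 with array weights, 1804 with both groups alone, 888 within slide 1 and 1734 with the replicate block. Between IPC and sham 10533 were called, against 17314 with no filter and 6386 with slide as a random block. With the percentile over detected probes, 7106 probes were higher and 4383 lower between I/R and sham, and 6928 and 4276 between IPC and sham. Under median scaling the split was 324 and 1073 between IPC and I/R, and 2620 and 7040 between IPC and sham. Arrays with the same replicate number were treated as unpaired. The correlation of their deviations was over 0.1 in 2, 1 and 2 of 5 pairs. It was not compared with that of differently numbered arrays, so it cannot decide whether the arrays were paired. The replicate block changed no call of a member, and G6pd2 between IPC and sham was -0.19 (limma adjusted p = 0.0134).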
